A study of Mus musculus with 18 samples.

Results

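Lilrb4a and Lilrb4b are neighbouring paralogous receptor genes on mouse chromosome 10, and their transcripts are described here in CD8+ T cells of a GRP75 deletion study. They were found by name in the deposited gene tables, where they are 2 of 27830 genes, and both are listed for naive, effector and memory cells. The pair was selected on its read levels in these libraries, with the difference between genotypes and subsets known, so its own values are given as a description, with no test. Poly-A RNA was sequenced from 6 groups of 3 libraries each. Naive CD8+ T cells were taken from lymph nodes and spleens of mice aged 8 weeks that were labelled cKO, a conditional knockout of Hspa9, or wild type (WT), with no treatment. Effector cKO and WT cells, and memory cKO and WT cells, were differentiated in culture from such naive cells. Hspa9 encodes GRP75, a chaperone of the mitochondrial matrix. The strain, the Cre driver, the deleted exons and the culture conditions are not given in the sources used here. Nothing in the labels says that the replicates were separate mice, so the SD, SE and p-values measure the spread between these libraries, which may be technical.

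Lilrb4a encodes gp49B, a receptor with immunoglobulin-like domains on mouse myeloid cells, mast cells, NK cells and activated T cells. Its cytoplasmic tail carries immunoreceptor tyrosine-based inhibitory motifs (ITIMs), which recruit tyrosine phosphatases such as SHP-1 once the tyrosine is phosphorylated and so dampen activating signals. Lilrb4b encodes gp49A, whose outer part is nearly the same but whose tail has no ITIM. The name inhibitory receptor therefore fits Lilrb4a and not Lilrb4b, as the sequences below show.

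In the deposited coordinates (build GRCm39, plus strand) Lilrb4b (ENSMUSG00000112023) spans chromosome 10 positions 51356728 to 51362799 and Lilrb4a (ENSMUSG00000112148) spans 51367052 to 51372707, with 4252 bases between them. The end of each coding sequence is shown because it is where the genes part, from base 841 of the coding sequence to the stop codon, read from GENCODE M21 transcripts. Capitals mark a run of C in both genes and, in Lilrb4a, the codons of its ITIMs.
Lilrb4a: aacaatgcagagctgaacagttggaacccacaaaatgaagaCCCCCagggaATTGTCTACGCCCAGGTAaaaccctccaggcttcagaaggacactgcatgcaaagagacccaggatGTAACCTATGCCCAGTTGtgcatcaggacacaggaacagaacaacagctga
Lilrb4b: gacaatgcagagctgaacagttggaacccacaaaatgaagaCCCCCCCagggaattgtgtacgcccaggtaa
The run of C is 5 bases long in Lilrb4a and 7 bases long in Lilrb4b. The coding sequence ends after 1008 bases in Lilrb4a and after 912 in Lilrb4b, and an alignment of the genes placed a single gap of 2 bases, after base 881 of both, at the run of C. Translation of Lilrb4a gave ITIM matches in the tail at codons 298 and 320 (isoleucine, leucine, valine or serine, any residue, tyrosine, any 2 residues, then leucine, valine or isoleucine), while Lilrb4b had 0 matches there. Both also matched once at codon 8, in the leader that is cut from the mature protein. Over the aligned part of the Lilrb4a coding sequence, 970 of 1008 bases were identical in the Lilrb4b transcript. The 98 Lilrb4a bases that align past the stop codon of Lilrb4b were identical at 96 positions, so most letters that encode the rest of the Lilrb4a tail are still found in Lilrb4b past its stop codon.

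This likeness limits how reads are told apart. Of the windows of 150 bases along the main Lilrb4a transcript, 92 of 1232 occur unchanged in a Lilrb4b transcript, and of windows of 50 bases 370 of 1332 do. The annotation also holds a read-through gene over both, Gm49339, whose exons cover 1846 of the 5227 exon bases of Lilrb4a and 122 of the 5439 of Lilrb4b. Gm49339 held at most 2 reads in any library. How reads that fit more than 1 gene were counted is not given in the sources used here, so the level of Lilrb4a beside that of Lilrb4b is uncertain.

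Library totals over genes lay between 14771251 and 18049774 reads. The label of the deletion was checked first, and Hspa9 reads went against it: normalised Hspa9 reads were 6438 ± 284 in naive libraries labelled cKO and 3992 ± 176 in naive WT, 2339.9 ± 151 in effector cKO and 2093 ± 79.7 in effector WT, and 5637 ± 160.02 in memory cKO and 4041 ± 119 in memory WT libraries (SD, n = 3 each). Gene totals do not show which exons were read, and cKO names the label of a library throughout. The Y-linked gene Ddx3y held 2771 to 3056 normalised reads in naive cKO libraries and 0 in naive WT libraries, and Xist held 4109 to 4627 in naive cKO and 14706 to 17632 in naive WT libraries, so sex and genotype cannot be told apart in the naive comparison. In effector libraries Xist held 12387.5 to 12848 in cKO and 13696 to 14930 in WT. In memory libraries it held 10152 to 17168 in cKO and 13420 to 17598 in WT. CD8 T cell markers were high everywhere, with all 10 detected and Cd8a between 1092 CPM (read counts scaled to the same library total) in memory cKO and 1770.1 in effector WT cells. Their sum was lower in every cKO library than in every WT library of the same subset. It was 6136 to 6436 CPM in naive cKO and 6953 to 7199 in naive WT libraries. In effector libraries it was 7127 to 7364 in cKO and 7806 to 7911 in WT. In memory libraries it was 5307 to 6075 in cKO and 6224 to 6708 in WT.

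In naive cells both genes were low, and both were higher in every cKO library than in every WT library. Lilrb4b had 137, 116 and 169.6 normalised reads in the naive cKO libraries, against 11.6, 18.2 and 22.9 in the naive WT libraries. Lilrb4a had 117, 107 and 104 in the naive cKO libraries, against 13.7, 16.1 and 25.1 in the naive WT libraries. Normalised reads are the deposited values, in which each library's counts were divided by its own size factor. The groups did not overlap: the lowest cKO library held 5.05 times the highest WT library for Lilrb4b and 4.16 times for Lilrb4a. The log2 fold change, on log2(normalised reads + 1), was 2.96 (SE 0.27) for Lilrb4b and 2.56 (SE 0.25) for Lilrb4a. Such a gap, with the lowest cKO value above the highest WT value, was found for 20.3% of the 13885 genes tested in naive cells. Of these 13885 genes, 24.9% passed the limma test described below in either direction, and 12.9% with cKO higher. The WT values rest on 11 to 23 reads per gene and library, so their counting error is larger than in the other subsets. In bulk RNA, more cells that express a gene and more RNA per cell cannot be told apart.

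In effector cells both genes were abundant in both genotypes and higher in every cKO library. Lilrb4b had 6302, 6707 and 6812 normalised reads in the effector cKO libraries, against 3085, 3019.6 and 3168 in the effector WT libraries. Lilrb4a had 2172, 2439 and 2541 in the effector cKO libraries, against 1065, 1050.5 and 1096 in the effector WT libraries. Each cKO library lay well above each WT library, with a lowest cKO to highest WT ratio of 1.99 for Lilrb4b and 1.98 for Lilrb4a. The ratio of the means was 2.14 for Lilrb4b (log2 fold change 1.10, SE 0.04) and 2.23 for Lilrb4a (log2 fold change 1.15, SE 0.06). In this subset 17.9% of 13815 genes had no overlap with cKO higher. The limma test was passed by 20.1% in either direction, and by 10.7% with cKO higher.

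In memory cells both genes were again higher in every cKO library, by a wider margin than in effector cells. Lilrb4b had 5874, 6143 and 5643 normalised reads in the memory cKO libraries, against 1268, 1173 and 1211 in the memory WT libraries. Lilrb4a had 2419, 2689 and 2422 in the memory cKO libraries, against 419.7, 497 and 448 in the memory WT libraries. No library of either group came near the other group, and the lowest cKO library held 4.45 times the highest WT library for Lilrb4b and 4.86 times for Lilrb4a. The ratio of the means was 4.83 for Lilrb4b (log2 fold change 2.27, SE 0.07) and 5.52 for Lilrb4a (log2 fold change 2.46, SE 0.09). Of 14622 genes, 19.4% had no overlap with cKO higher. The limma test was passed by 19.1% in either direction, and by 12.1% with cKO higher.

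**Figure D1:**
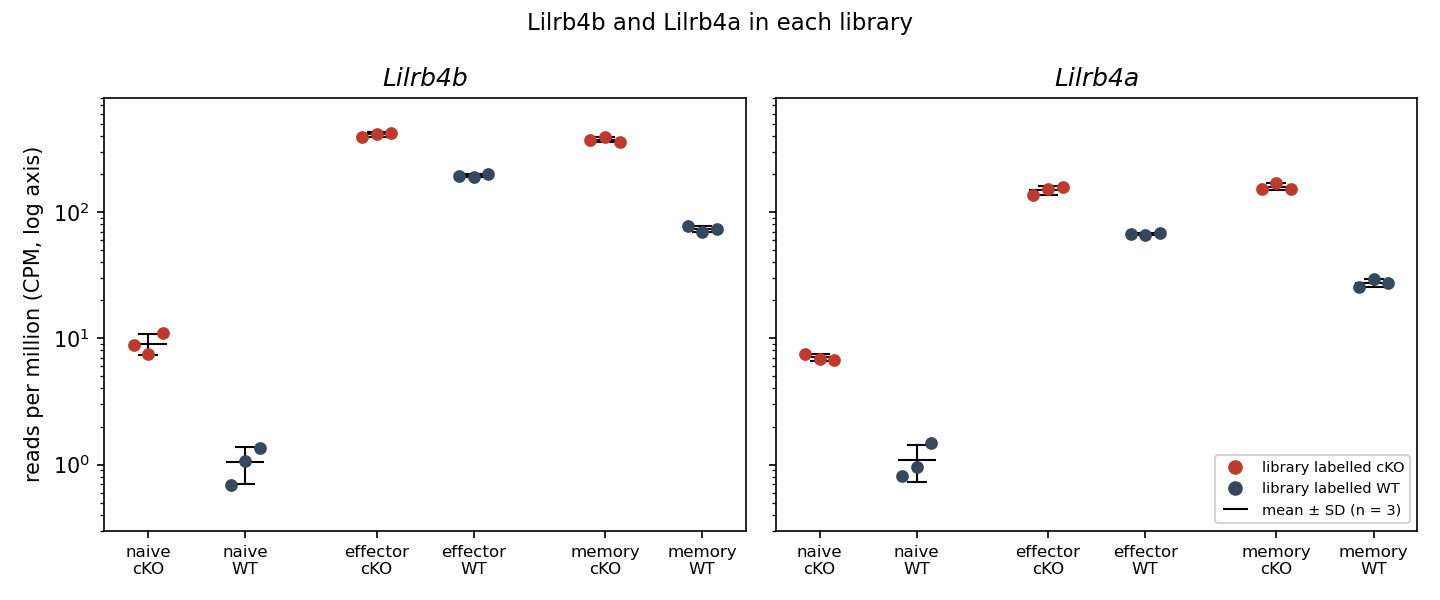
CPM (log axis) of Lilrb4b (left) and Lilrb4a (right) in each of the 18 libraries, with the mean and SD of each group of 3. Each cKO group lies above the WT group of its subset without overlap, for Lilrb4b at 9.06 CPM in cKO against 1.04 in WT naive cells and at 373 in cKO against 73.3 in WT memory cells.

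The genotype difference was smaller in effector cells than in the other subsets for both genes. For Lilrb4b, the log2 fold change in effector cells minus that in naive cells was -1.87 (SE 0.21), and memory minus effector was 1.18 (SE 0.21). For Lilrb4a the same differences were -1.41 (SE 0.19) and 1.31 (SE 0.19). Memory minus naive was -0.69 (SE 0.21) for Lilrb4b and -0.10 (SE 0.19) for Lilrb4a, and the value for Lilrb4a turned to 0.13 with a pseudocount of 5 and to 0.08 without naive WT replicate 1. These differences set effects of the same libraries beside each other and were given no test, since the genes were chosen with these values known. In those that use naive cells, sex cannot be told apart from genotype on the naive side. Among 15694 genes, 28.2% had a genotype effect that differed between at least 1 pair of subsets (limma interaction, adjusted p under 0.05).

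**Figure D2:**
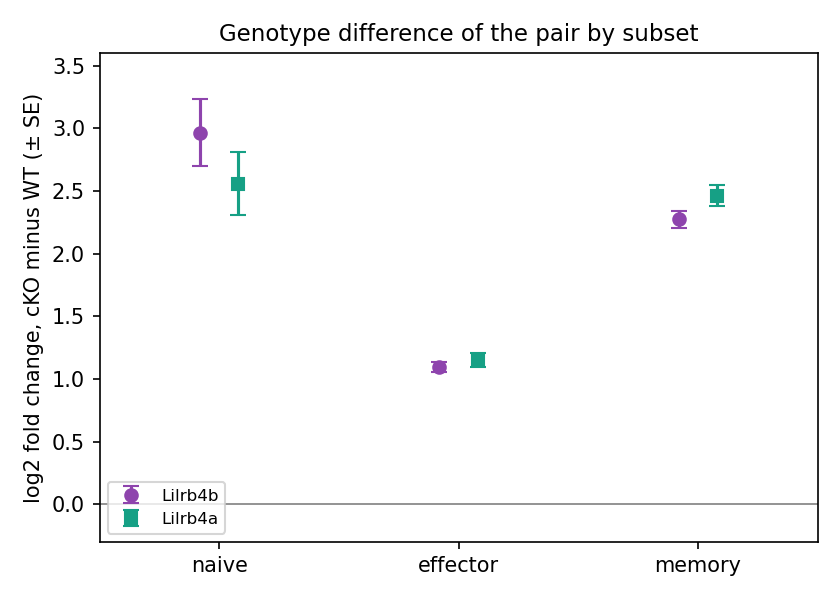
Log2 fold change of cKO minus WT (± SE, on log2(normalised reads + 1), n = 3 per genotype) of Lilrb4b and Lilrb4a in each subset. Both genes lie near 1.1 in effector cells and between 2.27 and 2.96 in naive and memory cells.

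Across subsets, read counts scaled to library totals gave the order of the levels. Lilrb4b was highest in effector cKO cells, with 412 ± 16.6 CPM, followed by memory cKO with 373 ± 16.3, effector WT with 193 ± 4.88, memory WT with 73.3 ± 3.66, naive cKO with 9.06 ± 1.75 and naive WT with 1.04 ± 0.33 (SD, n = 3 each). No neighbours in this order overlapped for Lilrb4b, although effector and memory cKO differed by only 1.10 times. Lilrb4a had 159 ± 9.98 CPM in memory cKO, 149 ± 11.8 in effector cKO, 67.02 ± 1.55 in effector WT, 27.4 ± 2.03 in memory WT, 7.05 ± 0.43 in naive cKO and 1.09 ± 0.35 in naive WT cells. Memory and effector cKO libraries overlapped for Lilrb4a, and their order is not resolved: on TMM-scaled reads (an edgeR scaling that sets most genes level between libraries) the log2 difference was -0.01, and scaled to library totals it was 0.10.

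Naive cells were the low point of both genotypes, so the folds between subsets were large. In WT cells, effector libraries held 186 times the naive CPM of Lilrb4b (log2 fold change 7.62 with edgeR and TMM scaling) and 61.7 times that of Lilrb4a (6.04). In cKO cells, effector libraries held 45.5 times the naive CPM of Lilrb4b (5.70) and 21.1 times that of Lilrb4a (4.58). Memory minus effector was -1.44 for Lilrb4b and -1.33 for Lilrb4a in WT cells, against -0.25 and -0.01 in cKO cells. Thus WT memory cells held 0.38 times the Lilrb4b CPM of WT effector cells, while cKO memory cells held 0.91 times that of cKO effector cells. Comparisons that share a group, such as those with WT effector cells, are not independent of each other. In cKO cells, those with naive cells also set libraries of different Xist levels beside each other. Only the naive cKO libraries held reads of listed Y-linked genes, so sex and subset cannot be told apart in these.

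The proportion of the pair that was Lilrb4a differed between naive cells and the others. Lilrb4a made up 44.1% ± 5.27 of the reads of the pair in naive cKO and 51.2% ± 3.68 in naive WT libraries, 26.5% ± 0.78 in effector cKO and 25.7% ± 0.07 in effector WT, and 29.9% ± 0.65 in memory cKO and 27.2% ± 2.46 in memory WT (SD, n = 3 each). The cKO and WT libraries overlapped in every subset, so within a subset the share did not set the genotypes apart. The naive libraries stood apart from all others, at 38.1% or more against 30.4% or less. The naive WT shares rest on only 24 to 44 reads of the pair per library. Because the genes share sequence, this share holds any error in how reads were divided between them.

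**Figure D3:**
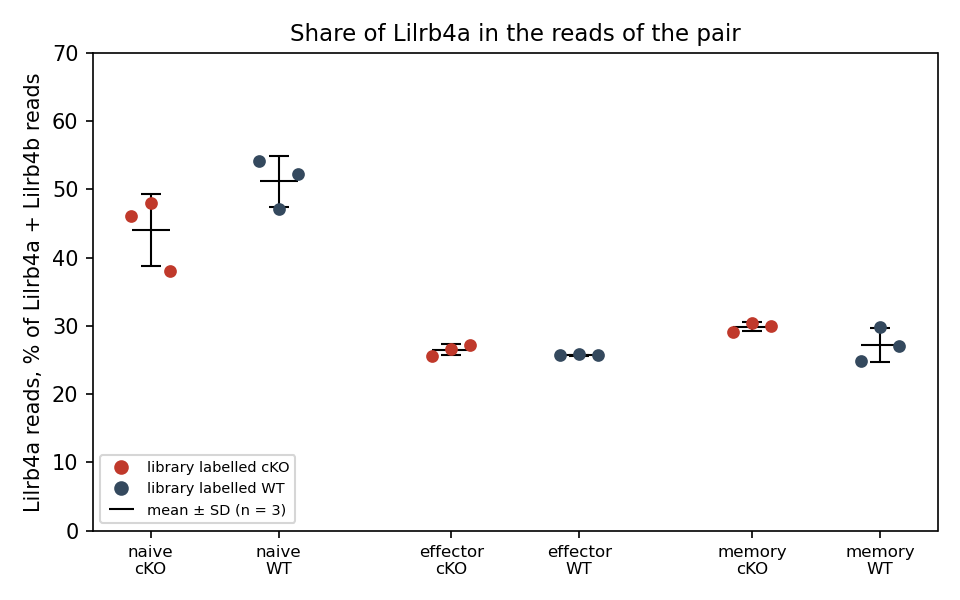
Lilrb4a reads as a percentage of Lilrb4a plus Lilrb4b reads in each library, with mean and SD per group (n = 3). Naive libraries lie at 38.1% to 54.2%, and effector and memory libraries at 24.9% to 30.4%.

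Per length (RPKM, CPM per kilobase of the deposited gene length), Lilrb4b held 75.7 ± 3.05 in effector cKO and 35.6 ± 0.90 in effector WT cells, and Lilrb4a 28.4 ± 2.26 in effector cKO and 12.8 ± 0.30 in effector WT cells (SD, n = 3 each). In memory cells the RPKM of Lilrb4b was 68.6 ± 3.00 in cKO and 13.5 ± 0.67 in WT, and that of Lilrb4a 30.4 ± 1.91 in cKO and 5.24 ± 0.39 in WT. These levels put Lilrb4b at rank 612 of 24117 listed genes in effector cKO and 1491 in effector WT cells, and at rank 644 of 24927 in memory cKO and 3723 in memory WT cells. The deposited lengths are 5439 bases for Lilrb4b and 5227 for Lilrb4a, while their main transcripts have 1836 and 1381 bases. RPKM and ranks therefore depend on the length used. Against 33 genes listed as inhibitory receptors, only Klrc1 (71.2 ± 2.78 RPKM) was above Lilrb4b in memory cKO cells. In memory WT cells 9 genes were above it. Klrc1 encodes NKG2A, an ITIM receptor for a nonclassical MHC molecule. In effector cKO cells the genes above Lilrb4b were Klrg1, Klrc1 and Tigit, and in effector WT cells there were 6. Lilrb4a, the member with ITIMs, had 7 of these genes above it in both effector and memory cKO cells, against 9 in effector WT and 11 in memory WT cells. In naive cells both genes were near the middle of the table or under it, with Lilrb4b at rank 10733 of 23757 in cKO and 15849 in WT cells and Lilrb4a at rank 11292 in cKO and 15612 in WT cells.

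Because myeloid cells also express the pair, markers of other cells were read beside it. The 18 macrophage and monocyte markers summed to 370.3 to 444 CPM in memory cKO and 45.3 to 48.8 in memory WT libraries, and to 686 to 712 in effector cKO and 683 to 715 in effector WT libraries. In naive cells they summed to 11.7 to 14.2 CPM in cKO and 6.52 to 7.29 in WT, with C1qa and Ms4a7 not listed in the naive table and C1qb and Mrc1 at 0 in WT. The sum of all 18 was lower in memory than in effector cKO cells, while the pair was at about the same level in both. Among the 18, Cx3cr1 made up most of the effector sum, with 532 CPM in cKO and 576 in WT cells. Cx3cr1 is a chemokine receptor that effector CD8+ T cells also carry. Itgam, Cx3cr1 and Cd68 were then left out, a choice made after their values were seen. The sum of the other 15 markers was higher in memory than in effector cKO cells, with Mpeg1 and Lyz2 as its largest parts in memory cKO cells. These 15 averaged 380 CPM in memory cKO and 32.3 in memory WT cells, and 92.6 in effector cKO and 28.8 in effector WT cells. Lyz2, the lysozyme of macrophages and neutrophils, averaged 143 CPM in memory cKO and 6.87 in memory WT, and 28.1 in effector cKO and 9.80 in effector WT cells. Mpeg1, a pore-forming protein of macrophages, averaged 195 CPM in memory cKO and 16.3 in memory WT, and 41.5 in effector cKO and 9.19 in effector WT cells. Itgam, an integrin chain, averaged 53.3 ± 3.03 CPM in effector cKO and 70.8 ± 5.87 in effector WT cells, and lay at 4.33 to 4.81 in memory cKO and 1.49 to 3.13 in memory WT libraries. Cd68, a lysosomal protein, averaged 24.2 ± 1.87 in effector cKO and 19.0 ± 1.25 in effector WT, and 16.0 ± 2.46 in memory cKO and 10.1 ± 0.96 in memory WT cells. By the limma test described below, 2 of the 5 markers tested rose and 0 fell in naive, 6 of 14 rose and 2 fell in effector, and 12 of 16 rose and 0 fell in memory cKO cells. Over all genes tested, 12.9% rose and 11.9% fell in naive, 10.7% and 9.37% in effector, and 12.1% and 7.00% in memory cKO cells. The pair itself averaged 532 ± 25.6 CPM in memory cKO and 101 ± 1.64 in memory WT, and 561 ± 28.4 in effector cKO and 260.5 ± 6.42 in effector WT cells. The part of such cells in the genotype difference of the pair was not tested.

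Other marker lists also differed between genotypes. The 11 dendritic cell markers averaged 1730 ± 158 CPM in memory cKO and 460.4 ± 15.7 in memory WT cells, and 1136 ± 19.1 in effector cKO and 837 ± 11.5 in effector WT cells (SD, n = 3 each). Itgax made up most of the effector sum, with 796 CPM in cKO and 701 in WT cells. Cd74 was the highest of these markers in memory cells, with 812 CPM in cKO and 170 in WT. The 11 neutrophil markers averaged 256 ± 41.2 in memory cKO and 21.1 ± 1.73 in memory WT cells, and 61.03 ± 3.07 in effector cKO and 18.3 ± 1.04 in effector WT cells. The 10 mast cell and basophil markers with a row in the tables averaged 34.04 ± 3.18 in memory cKO and 14.7 ± 1.96 in memory WT cells, with Tpsb2 not listed in the memory table. The 4 NK cell markers averaged 120.3 ± 7.76 in memory cKO and 15.4 ± 1.60 in memory WT cells, and 337 ± 7.79 in effector cKO and 135 ± 6.95 in effector WT cells, most of it from Klre1. In memory cells B cell markers averaged 143 ± 8.02 in cKO and 91.8 ± 6.00 in WT, plasma cell markers 62.1 ± 6.22 in cKO and 33.3 ± 4.25 in WT, and CD4 T cell markers 34.5 ± 1.51 in cKO and 16.7 ± 1.57 in WT. Gamma-delta T cell markers averaged 105 ± 14.3 in memory cKO and 14.4 ± 0.72 in memory WT cells, and 56.01 ± 1.95 in effector cKO and 8.38 ± 0.68 in effector WT cells. Erythroid markers averaged 63.8 ± 8.88 in memory cKO and 27.9 ± 4.75 in memory WT cells, 98.5 ± 2.11 in effector cKO and 14.2 ± 1.14 in effector WT cells, and 0.69 ± 0.34 in naive cKO and 5.32 ± 5.53 in naive WT cells. In effector cells the cKO to WT ratio exceeded that of the pair for erythroid (6.92), gamma-delta (6.68), neutrophil (3.34) and NK cell markers (2.49). It was below that of the pair for plasma cell (2.02), mast cell and basophil (1.69), dendritic cell (1.36) and B cell markers (1.21). For the 18 macrophage and monocyte markers (1.01) and the CD4 T cell markers (1.01) it was also below. Without Itgam, Cx3cr1 and Cd68, the macrophage and monocyte markers averaged 92.6 CPM in effector cKO and 28.8 in effector WT cells. That ratio was above that of the pair, but Itgam, Cx3cr1 and Cd68 were left out after their values were seen. In memory cells the ratio exceeded that of the pair for neutrophil (12.2), macrophage and monocyte (8.56), NK cell (7.82) and gamma-delta T cell markers (7.29). It was below for dendritic cell (3.76), mast cell and basophil (2.32), erythroid (2.28), CD4 T cell (2.06), plasma cell (1.87) and B cell markers (1.55). In naive cells dendritic cell markers averaged 366 ± 21.8 in cKO and 265 ± 14.4 in WT, nearly all of it Ccr9, with Cd209a not listed in the naive table and Clec9a, Siglech and Xcr1 at 0 in WT. Neutrophil markers averaged 0.85 ± 0.42 in naive cKO and 0.74 ± 0.45 in naive WT cells, and gamma-delta T cell markers 48.3 in naive cKO (44.7 to 51.9 over libraries) and 9.43 in naive WT (8.84 to 10.6) cells. T cell state markers also differed. Effector T cell markers summed to 265 ± 13.02 CPM in naive cKO and 294 ± 2.76 in naive WT, 9309 ± 455 in effector cKO and 8752 ± 244 in effector WT, and 720.5 ± 83.5 in memory cKO and 505 ± 38.7 in memory WT cells. Of these 8 genes, 5 of the 7 tested rose and 1 fell in naive cKO cells (median log2 fold change 1.85), 3 rose and 1 fell in effector cKO cells (median 0.08), and 5 rose and 2 fell in memory cKO cells (median 0.81). The 7 naive T cell markers summed to 5587 ± 223 in naive cKO and 5827 ± 219 in naive WT, 1305 ± 45.7 in effector cKO and 1444 ± 84.4 in effector WT, and 5671 ± 242 in memory cKO and 7429 ± 207 in memory WT cells. In this list 1 rose and 5 fell in naive, 2 rose and 4 fell in effector, and 0 rose and 6 fell in memory cKO cells. Beside both lists, 12.9% of all genes rose and 11.9% fell in naive, 10.7% and 9.37% in effector, and 12.1% and 7.00% in memory cKO cells. The part of these states in the values of the pair was not tested. The pair is also expressed by mast cells, dendritic cells and NK cells, and the part of any of these cells in its values was not tested.

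**Figure D4:**
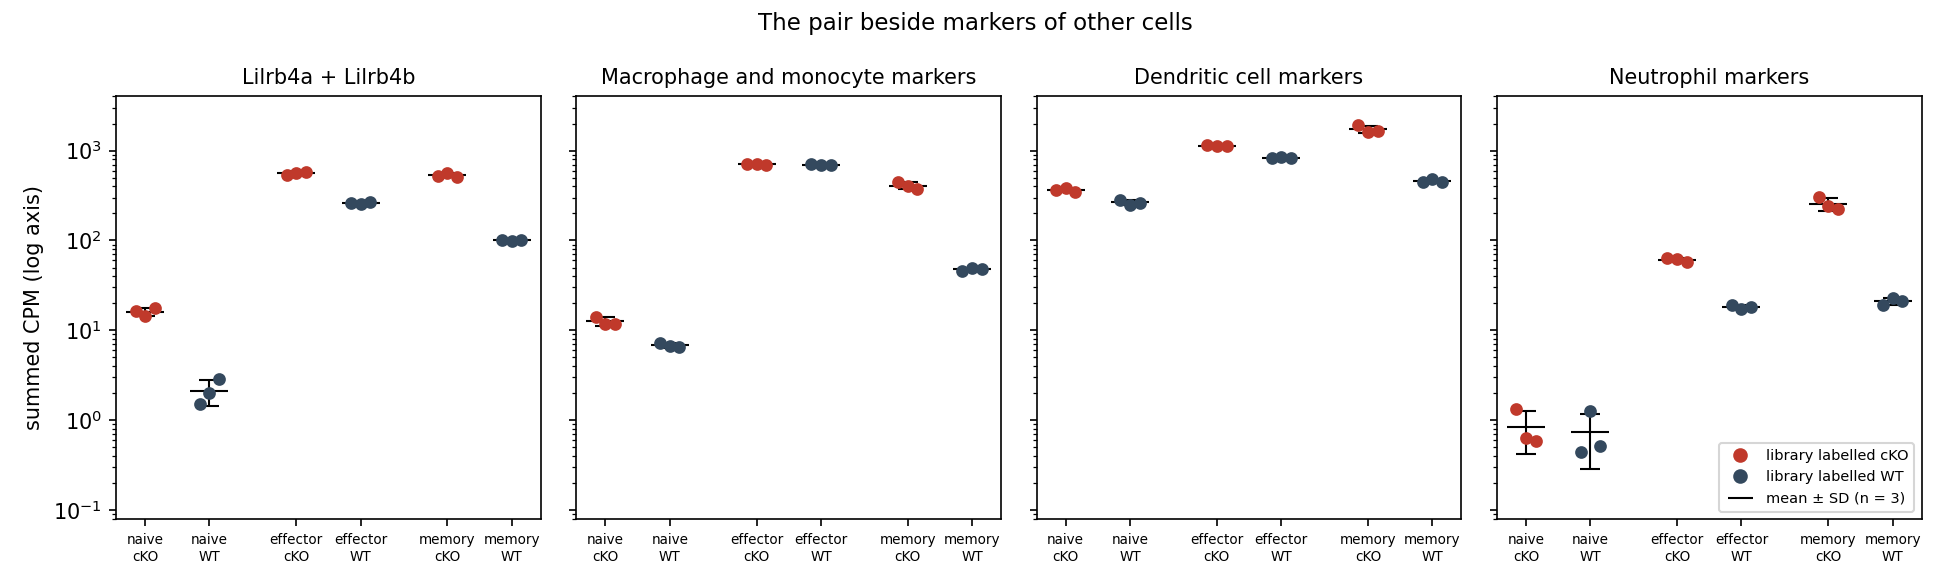
Summed CPM (log axis) of Lilrb4a plus Lilrb4b and of the macrophage and monocyte, dendritic cell and neutrophil marker lists in each library, with mean and SD per group (n = 3). Between effector and memory cKO cells the pair is level, at 561 and 532 CPM. The macrophage and monocyte markers are higher in effector cells, at 702 and 407 CPM, with Cx3cr1 at 532 in effector cKO cells. Without Itgam, Cx3cr1 and Cd68, left out after their values were seen, their sum is lower in effector cells, at 92.6 and 380 (not drawn). The dendritic cell (1136 and 1730) and neutrophil markers (61.03 and 256) are higher in memory cells. Itgax makes up 796 CPM of the dendritic cell sum in effector cKO cells, and Cd74 812 CPM in memory cKO cells.

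The nearest relatives of the pair, the paired immunoglobulin-like receptors on another chromosome, were scarce. Pirb, their inhibitory member with ITIMs on B cells and myeloid cells, averaged 17.2 ± 2.80 CPM in memory cKO and 1.56 ± 0.58 in memory WT cells. Pirb rose there by 3.39 on the log2 scale (SE 0.26, limma adjusted p = 2.6e-06). In effector cells Pirb averaged 2.79 ± 0.86 CPM in cKO and 1.76 ± 0.45 in WT, a difference that missed the threshold (limma adjusted p = 0.138, and 0.0479 without effector cKO replicate 1), and in naive cells it had at most 5 reads in a library. The other 6 matched relatives, Pira1, Pira2, Pira12, Pira13, Lilra5 and Lilra6, had at most 15 reads in any library. Against these, each library of the memory cKO group held 2485 to 2798 reads of Lilrb4a.

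Other inhibitory receptors were compared between genotypes with limma on all genes, and a gene was called where its p, adjusted over all of them (Benjamini-Hochberg), was under 0.05. Of all genes tested, 12.9% were called higher and 11.9% lower in naive cKO cells, 10.7% and 9.37% in effector cKO cells, and 12.1% and 7.00% in memory cKO cells. Of 25 receptors with ITIMs, 12 were tested in naive cells, where 5 rose and 2 fell, with a median log2 fold change of -0.01. In effector cells 10 of 21 rose and 1 fell (median 0.23), and in memory cells 14 of 24 rose and 3 fell (median 1.31). The median of all genes was -0.01, -0.01 and -0.02 in naive, effector and memory cells. Scaling to library totals moved the naive median to 0.11 and the part of called genes that were higher to 77.9% in naive and 78.0% in memory cells, against 52.0% and 63.3% with the deposited scaling. Without cKO replicate 1, 2 or 3 the naive count of rises was 2, 1 and 2, with fewer members left that met the read minimum, and without effector cKO replicate 1 or 3 the effector count was 6 and 5. In naive cells Klrc1 (32.2 normalised reads in cKO, 1.43 in WT) and Cd22 (1.32 CPM in cKO, 0.29 in WT) met the read minimum only through the cKO libraries. Genes that enter in this way can be called only as rises, so they add to the rises by the filter. Tigit, a receptor for nectin-family ligands, rose by 2.91 in naive (SE 0.25, adjusted p = 7.9e-06) and 0.50 in effector cKO cells (SE 0.05, adjusted p = 1.4e-06). Its memory rise was 1.08 (SE 0.09, adjusted p = 5.4e-06). Klrc1 rose by 3.89 in naive, 0.23 in effector and 1.73 in memory cKO cells (memory SE 0.08, adjusted p = 3.0e-08). Cd22 and Cd244a were also called higher in cKO cells of all subsets, as the pair was higher in all. Pecam1 and Cd72 were called lower in naive and memory cKO cells. Pdcd1, the gene of PD-1, fell by 1.06 in effector cKO cells (SE 0.13, adjusted p = 9.3e-06), where both members of the pair were higher. Among the memory rises, Sirpa (2.59) and Clec12a (3.19) encode receptors best known from myeloid cells, and Cd22 (1.54) one from B cells.

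Of 8 genes listed as inhibitory receptors without a classical ITIM, 3 rose and 2 fell in naive cKO cells (7 tested). In effector cKO cells 2 rose and 3 fell, and in memory cKO cells 5 rose and 2 fell. The medians were 0.27, 0.01 and 0.53. As shares of all genes tested, 12.9%, 10.7% and 12.1% rose and 11.9%, 9.37% and 7.00% fell in naive, effector and memory cKO cells. Cd200r4 in this list is not known as an inhibitory receptor, and it was among the naive falls (-0.59) and the memory rises (0.66). Entpd1, the ectoenzyme CD39, was higher in cKO cells of all subsets, by 1.45 in naive (adjusted p = 0.010, and 0.0645 without cKO replicate 1), 0.71 in effector and 1.83 in memory cells. Ctla4, a competitor of CD28 for its ligands, rose by 0.68 in naive but fell by 0.39 in effector and 1.16 in memory cKO cells. Cd160 rose by 0.47 in effector and 1.53 in memory cKO cells. Without memory WT replicate 2 or 3, or memory cKO replicate 3, the memory count of rises was 3.

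**Figure D5:**
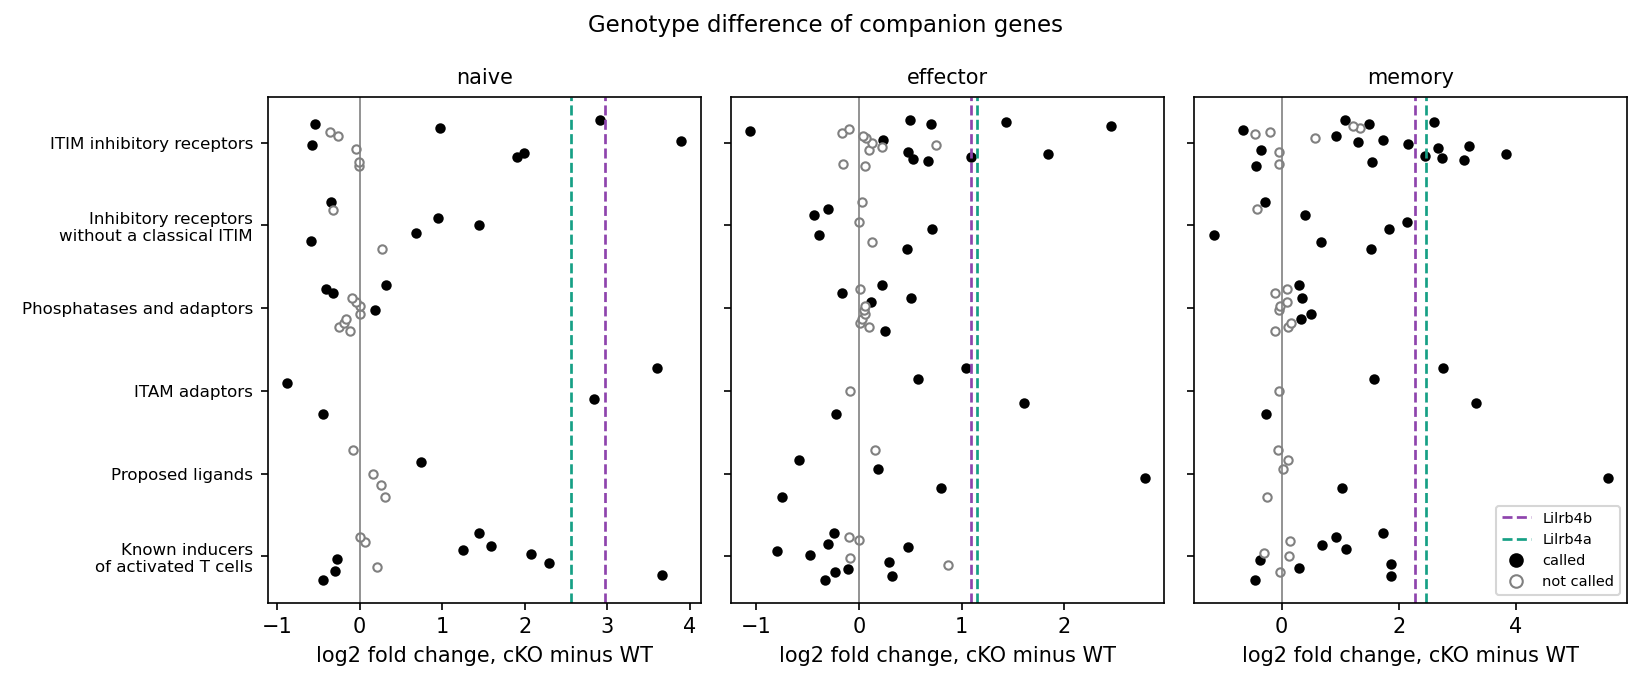
Log2 fold change of cKO minus WT of each tested gene of 6 companion lists (points, filled where called at an adjusted p under 0.05) in naive, effector and memory cells, with the values of Lilrb4b and Lilrb4a as dashed lines. Members of the receptor lists lie on both sides of 0 in every subset, for example Tigit at 2.91 and Pecam1 at -0.54 in naive cells.

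The partners of ITIM signalling differed little in size. Of 12 phosphatases and adaptors, 2 rose and 2 fell in naive, 4 rose and 1 fell in effector, and 4 rose and 0 fell in memory cKO cells, with medians of -0.10, 0.06 and 0.10. Among all genes tested, 12.9%, 10.7% and 12.1% rose and 11.9%, 9.37% and 7.00% fell in these subsets. The naive counts were near those shares. Ptpn6, which encodes SHP-1, rose by 0.50 in effector (SE 0.04, adjusted p = 8.4e-09) and by 0.35 in memory cKO cells (adjusted p = 0.0092, and 0.0615 and 0.0560 without WT replicate 1 or 3). Inpp5d, the gene of the lipid phosphatase SHIP-1, rose by 0.51 in memory cKO cells. Neither naive rise, Ubash3b or Pag1, was called without naive WT replicate 1 or without naive cKO replicate 1 or 2, and the memory count of rises was 1 and 2 without memory WT replicate 1 or 3. The naive count of falls was 1 without naive WT replicate 1 or naive cKO replicate 1 or 2, and the effector fall was not called without effector WT replicate 1 or 3 or effector cKO replicate 1 or 2, while 1 memory fall was called without memory cKO replicate 1.

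Adaptors of activating receptors, which ITIM receptors oppose, were tested as the counterpart. Of 5 such genes, 2 rose and 2 fell in naive (4 tested), and 3 rose and 1 fell in both effector and memory cKO cells, with medians of 1.20, 0.57 and 1.58. For all genes tested, the shares were 12.9%, 10.7% and 12.1% higher and 11.9%, 9.37% and 7.00% lower in naive, effector and memory cKO cells. Fcer1g, the Fc receptor gamma chain, averaged 15.8 CPM in memory cKO and 1.52 in memory WT cells and rose by 3.32 (SE 0.28), and Tyrobp, the gene of DAP12, rose by 2.75. Both are best known from myeloid and NK cells. Syk, a kinase that binds these adaptors, rose by 3.59 in naive, 0.57 in effector and 1.58 in memory cKO cells. Cd247, the T cell receptor zeta chain, fell by 0.44 in naive and 0.23 in effector cKO cells, and its memory value of -0.27 (adjusted p = 0.028) was not called where memory cKO replicate 2 or 3 or any memory WT replicate was left out. Fcer1g and Syk were not tested in naive cells without any 1 of the cKO replicates, since fewer than 3 libraries then held the minimum of 10 normalised reads.

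Genes of proposed ligands, such as fibronectin and apolipoprotein E for human LILRB4 and the integrin alpha v beta 3 for mouse gp49B, were also read. Of 6 genes, 1 rose in naive (5 tested), 3 rose and 2 fell in effector, and 2 rose in memory cKO cells, with medians of 0.26, 0.17 and 0.07. Beside this list, 12.9%, 10.7% and 12.1% of all genes rose and 11.9%, 9.37% and 7.00% fell in naive, effector and memory cKO cells. Fn1 had 14.6 CPM in memory cKO and 0.28 in memory WT cells and rose by 5.56, and Apoe had 23.9 CPM in memory cKO and 11.2 in memory WT cells and rose by 1.02. Itgb3, the integrin beta 3 chain, rose by 0.74 in naive and fell by 0.58 in effector cKO cells. Without any 1 of the effector libraries 1 or 2 effector rises were called, and without any 1 of the memory cKO libraries 1 memory rise was, with Fn1 then under the read minimum.

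Among 14 transcription factors and cytokine pathway genes of activated T cells, 6 rose and 3 fell in naive (12 tested), 3 rose and 7 fell in effector, and 7 rose and 2 fell in memory cKO cells (13 tested), with medians of 0.73, -0.10 and 0.29. All genes tested gave shares of 12.9%, 10.7% and 12.1% higher and 11.9%, 9.37% and 7.00% lower in naive, effector and memory cKO cells. Bhlhe40, a repressor that T cells switch on when activated, was higher in cKO cells of all subsets as the pair was, with log2 fold changes of 3.66 (naive), 0.32 (effector) and 1.86 (memory). Irf4, which is induced in proportion to T cell receptor signals, rose by 2.08 in naive cKO cells but fell by 0.48 in effector cKO cells. In a fit of all 18 libraries, 1 gene of this list rose and 3 fell in effector cKO cells. The naive count of falls was 1 without naive cKO replicate 1 or 2, and the memory count of falls was 1 without replicate 2 or 3 of either memory group.

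The neighbourhood of the pair was nearly silent. Besides Gm49339, 5 genes start within 300 kb of either member: Gm46189, Gm40645, Gm46224, Gm48786 and Gprc6a. None exceeded 0.84 CPM in any group or 18 reads in any library, against up to 7383 reads of Lilrb4b. Gm40645 is a noncoding gene on the minus strand that overlaps Lilrb4a, and the strand setting of the counting is not given in the sources used here.

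The genes closest in pattern were sought over the 6 group means among 13047 genes listed in all tables with a mean of at least 1 CPM, by the root mean square difference of centred log2(CPM + 0.5). Gem, a small GTPase induced by T cell mitogens, was closest to Lilrb4a, at a difference of 0.32, with 12.03 CPM in naive cKO and 1.62 in naive WT, 243 in effector cKO and 122 in effector WT, and 161 in memory cKO and 55.8 in memory WT cells. Klra3 (0.58), a Ly49 receptor, and Samd3 (0.58) followed, ahead of Lilrb4b itself (0.61) and Pld4 (0.64). For Lilrb4b the closest were Lrrk1 (0.54), a kinase, Klrc2 (0.59), the activating receptor NKG2C, Gem (0.61), Lilrb4a (0.61) and Klre1 (0.77), an NK cell receptor. So each member was among the 5 genes most like the other, but neither was the closest. The measure covers 6 means from the same libraries and gets no test.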

How the data were processed

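RNA-seq of 18 libraries was read from 3 deposited tables, 1 per subset. The submitters' processing notes name fastp, HISAT2 2.2.1, featureCounts 2.0.6, DESeq2 1.42.0 and GRCm39, with no role, annotation or strand setting. The deposited signal values are normalised read counts, scaled by a size factor for each library within each table. Reads were recovered by dividing each column by its smallest positive value, and 100% of values came out whole (within 1e-05). The authors' log2 fold changes (WT over cKO), p-values and group means were not used for any result here. All columns of the libraries were mapped by name.

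Genotype differences were fitted in each subset with limma 3.58.1 in R 4.3.3 on log2(normalised reads + 1), over genes that reached 10 normalised reads in 3 or more libraries, adjusted over all genes tested. Differences between subsets were interaction terms of 1 limma model. Folds between subsets came from edgeR 4.0.16 with TMM scaling on recovered reads, because the deposited size factors are set within a table. CPM used library totals, and RPKM the deposited gene lengths. Alternatives included DESeq2 1.42.0 on recovered reads, and the fits were tested on simulated data. All 18 pairs of replicates of a group differed by more than counting noise, so none was treated as 1 library deposited again. This does not show that they came from separate samples.

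Lilrb4a, Lilrb4b and the gene lists were chosen with earlier results of these data known. Named genes are the pair, its matched relatives, up to 4 called members of each list per comparison with the smallest adjusted p, neighbours within 300 kb and the 5 genes closest in pattern. The relatives Pira6, Pira7 and Pira11 were not matched and not analysed here. Sequences and transcripts came from GENCODE M21.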

Additional observations from a re-analysis of the deposited data

Results flagged for a closer look

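Of 41 companion genes named by the rule, 7 were called in opposite directions in 2 subsets, with a genotype difference that itself differed between them (limma interaction over all genes, adjusted p under 0.05). The genes were named for small adjusted p-values within a subset, so their number by itself is no result, and 28.2% of all 15694 genes had a called interaction. The pair is not among them, since both genes were higher in cKO cells of each subset. Values are log2 and adjusted p-values are limma's. Pdcd1 fell by 1.06 in effector cKO cells and rose by 0.98 in naive cKO cells, a difference of -2.03 (SE 0.30, adjusted p = 3.1e-05). Irf4 fell by 0.48 in effector and rose by 2.08 in naive cKO cells, a difference of -2.55 (adjusted p = 5.5e-13). Ctla4 fell by 0.39 in effector and 1.16 in memory cKO cells and rose by 0.68 in naive cKO cells, so effector minus naive was -1.07 (adjusted p = 2.2e-07) and memory minus naive was -1.84 (adjusted p = 1.1e-10). Lag3 fell by 0.44 in effector and rose by 0.95 in naive cKO cells, a difference of -1.39 (adjusted p = 0.0014), but its effector fall was not called in a fit of all 18 libraries (adjusted p = 0.206). Itgb3 fell by 0.58 in effector and rose by 0.74 in naive cKO cells, a difference of -1.32 (adjusted p = 2.0e-08). Cd200r4 rose by 0.66 in memory and fell by 0.59 in naive cKO cells, a difference of 1.25 (adjusted p = 2.2e-04), with the naive fall not called without naive WT replicate 3 or naive cKO replicate 1 or 3 (adjusted p = 0.0873, 0.0680 and 0.0771). Zeb2 rose by 1.74 in memory and fell by 0.24 in effector cKO cells, a difference of 1.98 (adjusted p = 0.0048), with the effector fall at an adjusted p of 0.713 in the fit of all 18 libraries. Sex cannot be told apart from genotype on the naive side of each difference that uses naive cells.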

How the results depend on the processing

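No alternative or left-out library turned the direction of a genotype difference of Lilrb4a or Lilrb4b within a subset. With 1 library left out, the log2 differences ranged from 2.71 to 3.17 in naive, 1.07 to 1.13 in effector and 2.24 to 2.30 in memory cells for Lilrb4b, and from 2.38 to 2.80, 1.10 to 1.22 and 2.41 to 2.53 for Lilrb4a. Scaling to library totals gave 2.35 for Lilrb4b in memory cells, 4.39 for effector minus naive cKO and 0.10 for memory minus effector cKO of Lilrb4a (a turned sign; -0.0765 to 0.0521 with 1 library left out), and -0.14 for memory minus effector cKO of Lilrb4b. A pseudocount of 5 gave -1.18 for the effector minus naive difference of the Lilrb4a genotype effect (-1.64 to -1.23 with 1 library left out) and 0.13, a turned sign, for memory minus naive (-0.33 to 0.0796). For Lilrb4a in WT cells, leaving out 1 library gave 5.87 to 6.32 for effector minus naive, 4.54 to 4.99 for memory minus naive and -1.42 to -1.29 for memory minus effector. TMM scaling gave mean levels of 6.52 CPM for Lilrb4a in naive cKO and 70.2 in effector WT cells, and 434 for Lilrb4b in effector cKO and 203 in effector WT cells. The cause of these shifts was not tested.

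The number of genes called was 2127 to 3301 in naive cells with 1 library left out (2138 and 2127 without cKO replicate 1 or 2) and 1830 to 3049 in memory cells (1830 and 1836 without WT or cKO replicate 3), and 1519 in effector cells in a fit of all 18 libraries. edgeR called 3436, 2820 and 2870 genes and DESeq2 3336, 2411 and 2748 in naive, effector and memory cells. Same-numbered cKO and WT libraries did not deviate together (correlations of -0.14 to 0.07 over 9 pairs), so the numbers do not pair them, and with a replicate block 2469, 2687 and 2226 genes were called. In the fit of all 18 libraries, 12 of 23 ITIM receptors rose in naive and 6 of 23 in effector cKO cells. Depth limits the naive WT values, which rest on 24 to 44 reads of the pair per library.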
